A study of Gossypium hirsutum with 6 samples.

Results

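The genes described here encode the machinery that switches ADP-ribosylation factor (ARF) GTPases on and off and the tethers that hold transport vesicles at the Golgi apparatus of cotton fibers. They were chosen by name: a gene was a member when its best Swiss-Prot description contained conserved oligomeric Golgi complex, brefeldin A-inhibited, ADP-ribosylation factor, trafficking protein particle complex, golgin or Golgi SNAP. The rule used no expression value, but the members were chosen with earlier results of these data known. It found 246 of the 73622 genes in the table, 112 on A chromosomes, 128 on D chromosomes and 6 on unplaced contigs. The RNA came from upland cotton fibers (Gossypium hirsutum; strain 63, a genetic standard line) at 15 days post-anthesis (15DPA, days counted from flowering) and at 5 days post-anthesis (5DPA). There were 3 libraries per stage, which the series' design calls biological replicates, and the labels name no treatment. Fibers came from the same position on the plants, and the labels do not say how many plants or bolls a library pooled. The functional names rest on sequence similarity to proteins of Arabidopsis, rice, animals and other organisms, and no member was tested for function here.

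A cotton fiber is a single, very long cell that grows from the seed coat epidermis. At the earlier stage it elongates with a thin primary wall, and at the later stage it still elongates and approaches the change to secondary wall synthesis. Its pectins and hemicelluloses are made in the Golgi, and cellulose synthase complexes pass through the Golgi on their way to the plasma membrane. ARF GTPases bind Golgi membranes when an exchange factor loads them with GTP, recruit vesicle coats such as COPI, and leave when a GTPase-activating protein (GAP) triggers hydrolysis. Golgins, the COG complex and the TRAPP complexes then catch vesicles at the target membrane, and SNAREs fuse them.

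The libraries held 15.62 to 16.94 M counts at 15DPA and 15.61 to 16.62 M counts at 5DPA, so depth was close to even. Along a first principal component with 65.4% of the variance, the 15DPA libraries scored 89.7, 31.1 and 100.4 and the 5DPA libraries scored -67.1, -94.8 and -59.3, with 15DPA replicate 2 nearest to the 5DPA side. In 15DPA replicate 3, 26 genes that had at least 20 reads in each of the other libraries were missing, against 0 to 2 such genes in the other libraries. Of the members, only Gh_A08G136300 (ARF-like protein 2) was among them, with 54, 77 and 0 reads at 15DPA and 52, 78 and 57 reads at 5DPA. A further 35 genes, 0 of them members, had at least 20 reads in 15DPA replicate 3 alone. The other libraries together held at most 1 read of each. In the other libraries 0 to 5 genes were seen alone in this way. The 188 genes matched to fiber markers summed to 31289.0 to 44642.5 FPKM at 15DPA and 18144.4 to 25039.5 FPKM at 5DPA, where FPKM is counts per kilobase of gene model and per M counts. The sum was carried by abundant genes, among them the E6 genes at 12855.7 to 19617.0 FPKM at 15DPA against 8270.5 to 11751.5 FPKM at 5DPA. The fiber genes did not all move one way: of 99 tested, 35 were called higher and 16 lower, and the MYB106 genes, which encode a fiber and trichome regulator, summed to 1.4 to 2.23 FPKM at 15DPA against 14.1 to 17.4 FPKM at 5DPA. Markers of other cells were summed too, and most of these sums differed between the stages. The 55 histone H3, histone H4 and cyclin-B genes, which mark dividing cells, summed to 735.8 to 1155.4 FPKM at 15DPA and 2741.8 to 4290.3 FPKM at 5DPA. The histones carried nearly all of this difference. Histone H3 genes had 379.6 to 654.9 FPKM at 15DPA against 1407.3 to 2040.7 FPKM at 5DPA, and histone H4 genes 173.1 to 319.3 against 1100.9 to 2007.8 FPKM. Cyclin-B genes differed far less, with 158.6 to 202.2 FPKM at 15DPA against 204.9 to 241.8 FPKM at 5DPA. The 31 vascular (sieve element) genes summed to 14.3 to 38.6 FPKM at 15DPA and 95.1 to 175.8 FPKM at 5DPA. A single vascular gene, averaging 65.7 FPKM over the 6 libraries, carried most of that sum. Only 4 vascular genes were tested, of which 1 was called lower, and 2 had log2 changes above 0 and 2 below. The 57 green-tissue genes summed to 25.6 to 46.8 FPKM at 15DPA against 74.0 to 79.8 FPKM at 5DPA. The 33 seed storage genes summed to 12.4 to 16.7 FPKM at 15DPA and 5.61 to 8.11 FPKM at 5DPA, with legumin and 2S albumin at 0 in every library. The 14 tannin-cell genes summed to 550.3 to 1390.1 FPKM at 15DPA against 951.0 to 1261.5 FPKM at 5DPA. These tannin-cell sums overlapped, and 0 of 9 tested genes were called. The part of these markers in the results that follow was not tested.

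More Golgi tether and ARF regulator genes were higher than lower at 15DPA. Of the 246 members, 208 had a mean of at least 1 FPKM over the 6 libraries and were tested. By edgeR's quasi-likelihood test with Benjamini-Hochberg adjustment over all 40054 genes tested, 77 members (37.0%) were called higher at 15DPA at an adjusted p under 0.05, against 13.0% of all genes tested. Only 2 members (0.962%) were called lower, against 10.4% of all genes tested, and 129 were not called. Calls in either direction made up 23.4% of all genes tested. The median log2 change of the tested members was 0.40 (SD 0.58 over members), while that of all genes tested was -0.04 (SD 0.96). The rises were mostly small. Called members rose by 0.44 to 3.96 on the log2 scale with a median of 0.75, and only 13 members passed 2-fold higher, a share near the 6.12% of all genes tested that did so. At least 2-fold lower were 2 members, against 6.49% of all genes tested. In bulk RNA, fewer cells of a type and less RNA per cell cannot be told apart.

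The FPKM values, which are scaled by each library's total alone, also separate the stages for many members. All 15DPA libraries lay above all 5DPA libraries for 69 tested members, against 12.9% of all genes tested. The reverse held for 33 members, against 37.3% of all genes tested, and the stages overlapped for 106. The fold changes of edgeR use TMM factors, which correct for a few abundant genes taking up more of a library, and these factors raised the median log2 change of all genes by 0.29 over that from library totals. With library totals alone, 32 members were called higher and 9 lower, against 7.19% and 19.3% of all genes tested, so the split of calls depends on this scaling. On FPKM itself, limma on log2(FPKM + 1) called 32 members higher and 14 lower, against 7.3% and 22.3% of all genes tested. A change of scaling moves all genes by nearly the same amount. The median of the members was therefore 0.43 above that of all genes under either scaling, which does not bear on the choice of scaling. All 77 members called higher kept a positive log2 change with library totals. Each had risen by at least 0.44, more than the shift of 0.29, so these signs were set in advance. Of the 77, 32 kept the call.

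Many of the calls were also lost when a single library was left out. Leaving out 15DPA replicates 1, 2 and 3 in turn gave 14, 84 and 62 members called higher. Leaving out 5DPA replicates 1, 2 and 3 gave 30, 13 and 34. The calls of all genes moved along, to 3.74%, 15.1% and 12.8% of genes higher without 15DPA replicates 1, 2 and 3, and to 7.17%, 3.72% and 6.67% without the 5DPA replicates in that order. In each of these fits all 77 members kept a positive log2 change, and 12 of them kept the call in all 6. The median log2 change of the tested members was 0.35 to 0.45 in these fits. Each fit held fewer libraries, and the part of that in the lost calls was not tested.

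**Figure D1:**
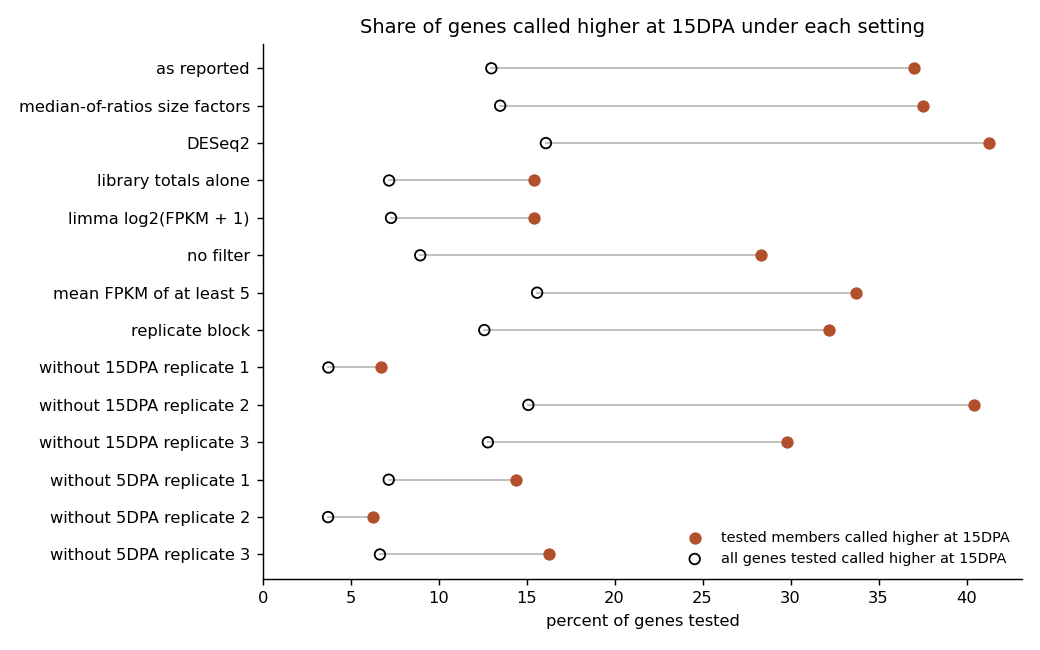
Share of genes called higher at 15DPA, in percent of the genes tested, for the tested members (filled points) and for all genes tested (open points) under each processing setting, 1 line per setting. The members' share lies right of the share of all genes on every line, from 6.25% without 5DPA replicate 2 to 41.3% with DESeq2.

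Together the 246 members took 0.701 to 0.75% of all counts at 15DPA and 0.6 to 0.625% at 5DPA. Their FPKM summed to 4650.6, 4384.5 and 4838.0 in the 15DPA libraries and to 3857.5, 3726.1 and 3956.4 in the 5DPA libraries, which do not overlap. The ratio of the mean sums was 1.20, or 1.48 after dividing by the TMM factors. The 38 members that were not tested had mean levels of at most 0.968 FPKM, and 9 of them had no read in any library, where up to 3 reads per library, or 0.192 FPKM for a model of 1 kilobase, could have been missed by counting error. A further 5 tested members averaged under 1 FPKM at 15DPA and 2 under 1 FPKM at 5DPA. The counts of A members and D members were close. Of 97 tested A genes 36 were called higher (median log2 change 0.37), and of 109 tested D genes 40 (median 0.43). The role groups that follow can be set beside all genes tested, of which 13.0% were called higher and 10.4% lower. Those shares were 7.19% and 19.3% with library totals, and 7.3% and 22.3% with limma on log2(FPKM + 1). With a filter at 5 FPKM they were 15.6% and 14.3%, and 163 members were tested.

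**Figure D2:**
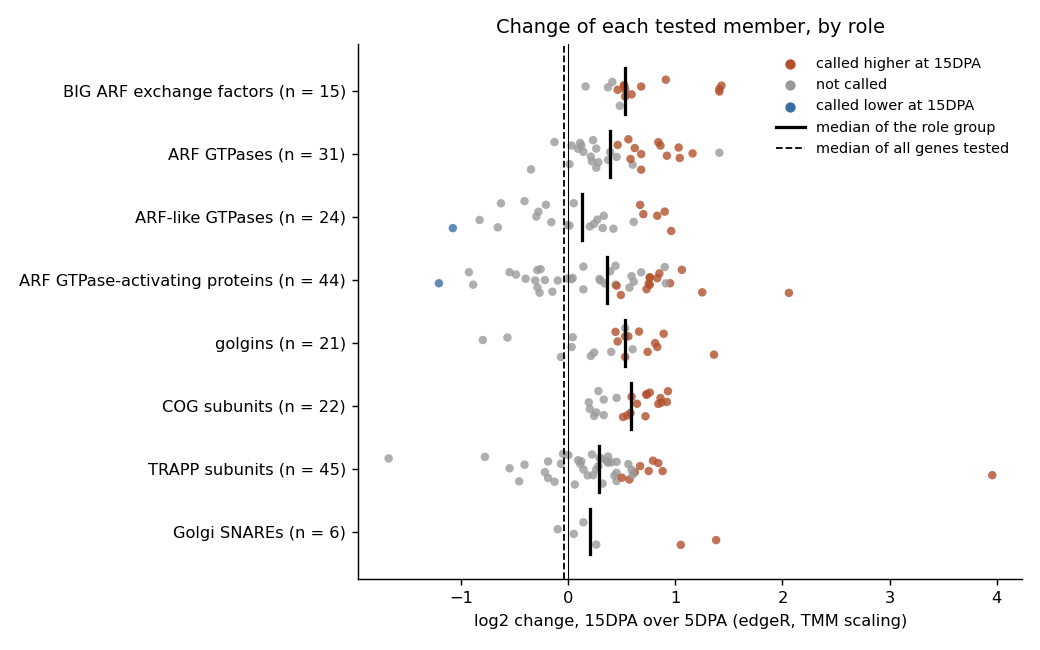
Log2 change of each of the 208 tested members (15DPA over 5DPA, edgeR with TMM scaling) in 8 role groups, with the group median as a bar and the median of all genes tested as a dashed line. Every COG gene and every BIG gene lies above 0, while the ARF-like GTPases, the GAPs and the TRAPP subunits spread to both sides. A TRAPP subunit 4 gene stands far right at 3.96.

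The exchange factors of the BIG type carry a Sec7 domain, load ARFs with GTP at the trans-Golgi network, and are blocked by the fungal toxin brefeldin A. Of 17 BIG genes 15 were tested, and 11 were called higher at 15DPA and 0 lower, with log2 changes of 0.16 to 1.43 and a median of 0.53 (0.23 with library totals). With library totals and with limma on log2(FPKM + 1) 4 were called higher, and with a filter at 5 FPKM 6, with 0 lower in each. That filter also leaves genes out of the test. Of the called BIG genes it tested, only Gh_D11G088400 and Gh_D07G019700 lost the call. Summed over the genes, BIG transcripts had 146.9, 139.7 and 144.7 FPKM at 15DPA, against 98.7, 119.9 and 111.7 FPKM at 5DPA. The stages did not overlap, and the ratio of means was 1.31 (1.61 with TMM factors). By subtype, 5 of 5 tested BIG1 genes, 3 of 6 BIG2 genes and 3 of 4 BIG5 genes were called higher. BIG5 is known in Arabidopsis as BEN1 or MIN7, which acts in early endocytic traffic and is a target of a bacterial effector. Without 15DPA replicate 1, or without any one of the 5DPA replicates, 4 of the 15 were called, without 15DPA replicate 3 there were 8, and without 15DPA replicate 2 there were 13.

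The largest rises among the exchange factors came from a BIG2 gene on each subgenome and from a BIG1 gene. Gh_A08G037800 (BIG2, A08:4038654-4049062) had 17.6, 13.3 and 16.2 FPKM at 15DPA, against 6.18, 6.47 and 8.91 FPKM at 5DPA. A BIG2 gene on D08, Gh_D08G037400 (D08:3692274-3700827) had 11.0, 9.03 and 9.82 FPKM at 15DPA, against 4.12, 4.46 and 5.24 FPKM at 5DPA. Gh_D02G213900 (BIG1, D02:66673591-66682586) had 7.93, 6.1 and 8.52 FPKM at 15DPA, against 3.17, 3.21 and 4.1 FPKM at 5DPA. In all 3 genes each 15DPA library lay above each 5DPA library. Their log2 changes were 1.43 ± 0.23, 1.41 ± 0.18 and 1.41 ± 0.22 (edgeR estimate ± SE, adjusted p 0.00865, 0.00471 and 0.00818), and these calls held with any library left out, at adjusted p of at most 0.0436, 0.0286 and 0.0421. The most abundant BIG genes moved less. Gh_A11G087600 (BIG2, A11:7633305-7641621) averaged 13.5 ± 1.26 FPKM at 15DPA against 12.5 ± 1.31 FPKM at 5DPA (SD, n = 3 each), with a log2 change of 0.41 ± 0.15 that was not called (edgeR adjusted p 0.0919). Gh_D07G019700 (BIG5, D07:1921540-1934478) had 14.7, 13.2 and 14.8 FPKM at 15DPA against 9.58, 13.3 and 12.1 FPKM at 5DPA, so the stages overlapped. It was called higher at 0.59 ± 0.17 (edgeR adjusted p 0.0451), and the call was lost without any single library except 15DPA replicate 2 and with library totals.

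The ARF GTPases themselves were the most abundant members, with 47.4% of the members' summed FPKM at 15DPA. Most ARFs of this type are a switch that recruits COPI and adaptor coats to Golgi membranes. Of 38 ARF genes 31 were tested, 12 were called higher and 0 lower, with log2 changes of -0.35 to 1.41 and a median of 0.39 (0.10 with library totals). With library totals 6 were called higher and with limma on log2(FPKM + 1) 7, with 0 lower in both. Their FPKM summed to 2227.5, 2002.8 and 2340.4 at 15DPA, against 1707.3, 1577.6 and 1721.9 at 5DPA, with no overlap and a ratio of means of 1.31 (1.62 with TMM factors). Leaving out 15DPA replicates 1, 2 and 3 in turn gave 0, 13 and 10 ARF genes called higher, and leaving out 5DPA replicates 1, 2 and 3 gave 4, 0 and 5. Many ARF genes are near-identical to one another. How reads fitting several copies were counted is not given in the sources used here. The sums over a description are therefore firmer than the value of a single copy.

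Most of the called ARF genes had rice ARF2 as their closest hit. Of 12 tested genes of that description 9 were called higher (6 with library totals), and their FPKM summed to 1559.5, 1301.4 and 1676.2 at 15DPA, against 1067.4, 909.8 and 1042.2 at 5DPA. Genes matching Arabidopsis ARF2-A, of which 3 of 6 were called higher, summed to 439.3, 454.7 and 413.6 FPKM at 15DPA against 367.9, 395.0 and 423.2 FPKM at 5DPA, which overlap. The 5 tested genes matching ARF1 (of rice or Brassica rapa) were not called, with log2 changes of 0.11 to 0.45. The ARF1 sums of 131.6, 141.1 and 131.4 FPKM at 15DPA lay below the 141.6, 144.7 and 141.2 FPKM at 5DPA. Their ratio of means was 0.945, but 1.16 with TMM factors. The 7 genes named ADP-ribosylation factor without a number (0 called) summed to 82.1, 89.8 and 103.4 FPKM at 15DPA against 111.9, 104.6 and 94.9 FPKM at 5DPA. Here the ratio of means was 0.884, but 1.09 with TMM factors. A single ARF3 gene was not called (log2 change -0.13). This gene had 15.1, 14.9 and 15.6 FPKM at 15DPA, below the 18.0, 23.2 and 20.2 FPKM at 5DPA. Both copies matching the Arabidopsis ARF At2g15310 were too low to test. The difference in response between these descriptions was not tested.

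The ARF2 genes with the highest levels lie on chromosomes A08 and D08. Gh_D08G046200 (D08:4702864-4705020) averaged 387.5 ± 52.2 FPKM at 15DPA against 251.7 ± 23.1 FPKM at 5DPA (SD, n = 3 each). Gh_A08G046200 (A08:5181252-5183403) averaged 333.4 ± 63.1 FPKM at 15DPA against 200.4 ± 15.0 FPKM at 5DPA (SD, n = 3 each). They rose by 0.92 ± 0.20 and 1.04 ± 0.22 on the log2 scale (edgeR adjusted p 0.0198 and 0.0182), and both calls were lost without 15DPA replicate 1 and without any one of the 5DPA replicates, at adjusted p of up to 0.0832 and 0.0783. Gh_D01G173800 (D01:50193951-50196904) had 153.6, 118.9 and 166.0 FPKM at 15DPA, against 84.8, 70.1 and 87.9 FPKM at 5DPA. Gh_A01G181200 (A01:98559165-98562088) averaged 170.8 ± 19.4 FPKM at 15DPA against 103.0 ± 11.8 FPKM at 5DPA. These genes rose by 1.16 ± 0.22 and 1.03 ± 0.20 on the log2 scale (edgeR adjusted p 0.0128 and 0.0133), and lost the call without 15DPA replicate 1 and without 5DPA replicate 2, at adjusted p of up to 0.0571 and 0.0598. The pair on A12 and D12 rose less, by 0.68 ± 0.17 for Gh_A12G139900 and 0.56 ± 0.17 for Gh_D12G139700 (edgeR adjusted p 0.0276 and 0.0469), and neither call held with library totals or without 15DPA replicate 1, 5DPA replicate 1 or 5DPA replicate 2. The call of Gh_D12G139700 was also lost without 15DPA replicate 3 and without 5DPA replicate 3.

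ARF-like GTPases share the ARF fold but act in other places, among them endosomes, lysosomes and tubulin folding. Of 25 such genes 24 were tested, 5 were called higher and 1 lower, with log2 changes of -1.08 to 0.96. Their median of 0.13 turned to -0.18 with library totals, under which 2 were called higher and 2 lower. Limma on log2(FPKM + 1) called 3 higher and 4 lower. The shares of all genes tested were 7.19% and 19.3% with library totals, and 7.3% and 22.3% with limma. The summed FPKM of 429.6, 406.0 and 423.5 at 15DPA overlapped the 394.2, 390.6 and 424.9 at 5DPA. The direction of the group was therefore not fixed. The fits without 15DPA replicates 1, 2 and 3 called 0, 5 and 5 of these genes higher, and those without 5DPA replicates 1, 2 and 3 called 1, 0 and 1. All 4 genes matching ARF-related protein 1 were called higher (1 with library totals), with log2 changes of 0.67 to 0.96 and sums of 58.7, 57.3 and 54.6 FPKM at 15DPA, against 38.2, 40.8 and 43.7 FPKM at 5DPA. In yeast and mammals this GTPase acts at the trans-Golgi, ahead of the GTPase that recruits golgins with a GRIP domain. None of these 4 was called without 15DPA replicate 1 or without any one of the 5DPA replicates, while without 15DPA replicates 2 and 3 there were 3 and 4.

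The other ARF-like genes did not share that pattern. Among the 8 tested genes matching ARL2, which in Arabidopsis (TITAN5) and in animals is needed for tubulin folding, 0 were called and 7 had a negative log2 change. The ARL2 sums of 25.5, 31.8 and 27.8 FPKM at 15DPA lay below the 39.1, 46.5 and 36.7 FPKM at 5DPA. Their ratio of means was 0.696 (0.855 with TMM factors). Of 8 genes matching ARL8a, whose animal relative positions lysosomes, 1 was called higher. The most abundant of them, Gh_A02G181700 (A02:102652366-102654761), averaged 117.0 ± 12.8 FPKM at 15DPA against 94.4 ± 14.5 FPKM at 5DPA (SD, n = 3 each), and its log2 change of 0.61 ± 0.19 was not called (edgeR adjusted p 0.0565). Next came Gh_D03G030500, also ARL8a, with 31.5, 31.3 and 33.6 FPKM at 15DPA against 33.1, 30.1 and 34.7 FPKM at 5DPA. Its stages overlap, its log2 change of 0.27 ± 0.15 was not called (edgeR adjusted p 0.233), and the sign turned to -0.03 with library totals. The gene called lower was Gh_D08G042000 (ARL8c, D08:4192627-4194985), with 3.32, 6.06 and 5.77 FPKM at 15DPA, against 16.7, 11.1 and 11.4 FPKM at 5DPA. It fell by 1.08 on the log2 scale (SE 0.30, edgeR adjusted p 0.0387), a call that was lost without 15DPA replicate 1 and without any one of the 5DPA replicates, at an adjusted p of up to 0.12.

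ARF GTPase-activating proteins end the ARF cycle, and most carry the AGD names of Arabidopsis. Of 59 genes 44 were tested, 13 were called higher and 1 lower, with log2 changes of -1.21 to 2.06 and a median of 0.36 (0.07 with library totals). With library totals 7 were called higher and 5 lower, and with limma on log2(FPKM + 1) 5 higher and 7 lower. The balance of GAP calls therefore depends on the scaling. A filter at 5 FPKM, which tests fewer genes, gave 7 higher and 1 lower. The summed FPKM of 604.4, 594.1 and 659.5 at 15DPA lay above the 583.4, 534.3 and 554.0 at 5DPA, at a ratio of means of 1.11 (1.37 with TMM factors). With single libraries left out, 3, 16 and 10 were called higher without 15DPA replicates 1, 2 and 3, and 9, 4 and 5 without 5DPA replicates 1, 2 and 3. The subtypes differed in their counts. AGD8, of the class related to the GAPs that act with COPI in yeast and animals, had 5 of 8 genes called higher, with sums of 198.8, 174.4 and 199.1 FPKM at 15DPA, against 130.9, 130.8 and 132.9 FPKM at 5DPA. AGD5, known in Arabidopsis as NEVERSHED and needed for the shedding of flower organs, had 3 of 8 called higher, AGD7, a Golgi GAP acting on ARF1 in Arabidopsis, 2 of 6, AGD4 2 of 3 and AGD2 1 of 2.

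Other GAP subtypes held no gene called higher. For AGD3, the Arabidopsis VAN3 or SCARFACE protein that shapes the leaf vein network, 0 of 4 genes were called by edgeR with TMM scaling and 2 were called lower with library totals. The AGD3 sums were 47.4, 51.7 and 60.0 FPKM at 15DPA, below the 75.7, 81.5 and 75.6 FPKM at 5DPA. Their ratio of means was 0.684 (0.843 with TMM factors). None of 8 tested AGD14 genes was called. Their sums of 52.3, 66.6 and 54.3 FPKM at 15DPA lay below the 71.9, 71.9 and 68.2 FPKM at 5DPA. The ratio of these means was 0.817, or 0.999 with TMM factors. None of the single tested genes for AGD1, AGD12 and AGD13 was called. Of 2 tested AGD11 genes 1 was called lower.

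The most strongly changed GAP gene was Gh_D12G227500 (AGD8, D12:56276530-56303506), with 23.0, 17.1 and 18.0 FPKM at 15DPA, against 6.16, 4.74 and 6.27 FPKM at 5DPA. It rose by 2.06 ± 0.22 on the log2 scale (edgeR adjusted p 0.00286), a call that held with any library left out (adjusted p of at most 0.0177). Gh_A11G029500 (AGD8, A11:2462640-2465936) averaged 44.1 ± 2.51 FPKM at 15DPA against 31.9 ± 3.06 FPKM at 5DPA (SD, n = 3 each) and rose by 0.76 ± 0.14 (edgeR adjusted p 0.0131). Its call was lost without 15DPA replicate 1 and without 5DPA replicate 2, at an adjusted p of up to 0.0593. The most abundant GAP gene, Gh_D05G372600 (AGD5, D05:59230803-59236188), had 64.7, 62.6 and 71.6 FPKM at 15DPA against 64.0, 39.4 and 40.7 FPKM at 5DPA. Here 5DPA replicate 1 lay among the 15DPA libraries, and the call (0.76 ± 0.22, edgeR adjusted p 0.0457) was lost without 15DPA replicates 1 or 3, without 5DPA replicates 2 or 3 and with library totals. Gh_A05G269700 (AGD11, A05:33064575-33069188), of a GAP type with a C2 domain, fell to 1.06, 1.18 and 1.1 FPKM at 15DPA, against 3.37, 3.6 and 2.55 FPKM at 5DPA. Its log2 change was -1.21 ± 0.24 (edgeR adjusted p 0.014), and the call was lost without 15DPA replicate 1 and without 5DPA replicate 2, at an adjusted p of up to 0.0674.

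Golgins are long coiled-coil proteins that reach out from Golgi membranes to catch vesicles. Of 26 golgin genes 21 were tested, 11 were called higher and 0 lower, with log2 changes of -0.80 to 1.36 and a median of 0.53 (0.23 with library totals). With library totals 2 were called higher and 1 lower, and with limma on log2(FPKM + 1) 1 higher and 1 lower. A filter at 5 FPKM, which tests fewer genes, gave 5 higher and 1 lower. Their sums of 189.6, 188.7 and 214.7 FPKM at 15DPA lay above the 182.5, 174.2 and 176.9 FPKM at 5DPA, at a ratio of means of 1.11 (1.37 with TMM factors). Called higher were 3 of 4 genes for golgin candidate 1 and 2 of 3 for candidate 2, both related to animal golgin-84. Golgin candidate 3, which carries a domain that binds ARF-type GTPases, had 2 of 3, candidate 5, related to animal TMF, 2 of 4 and candidate 6, related to animal p115, 2 of 3. The 4 genes whose best hit was rice Golgin-84 were not called. Their sums of 9.53, 13.3 and 13.1 FPKM at 15DPA lay below the 18.7, 18.8 and 15.7 FPKM at 5DPA. The ratio of these means was 0.674 (0.827 with TMM factors). The fits without 15DPA replicates 1, 2 and 3 called 1, 12 and 6 golgins, and those without 5DPA replicates 1, 2 and 3 called 3, 1 and 3.

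Gh_A12G294900 (golgin candidate 2, A12:104990942-104996838) was the most abundant golgin gene, with 21.9, 19.2 and 24.5 FPKM at 15DPA, against 15.2, 15.4 and 17.8 FPKM at 5DPA. It rose by 0.74 ± 0.18 on the log2 scale (edgeR adjusted p 0.0253). Gh_D04G064800 (golgin candidate 6, D04:9940097-9946334) averaged 19.9 ± 0.7 FPKM at 15DPA against 16.9 ± 0.693 FPKM at 5DPA (SD, n = 3 each) and rose by 0.53 ± 0.14 (edgeR adjusted p 0.0313). The stages did not overlap in either gene. Both calls were lost with library totals and without 15DPA replicate 1, 5DPA replicate 1 or 5DPA replicate 2, and that of Gh_D04G064800 also without 15DPA replicate 3 or 5DPA replicate 3. Adjusted p reached 0.0976 and 0.121.

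The COG complex is a tether of 8 different subunits that returns Golgi enzymes between cisternae. Its genes had the smallest SD of log2 changes of all role groups. Of 24 COG genes 22 were tested and all 22 had a positive log2 change, of 0.19 to 0.93, with a median of 0.58 and an SD of 0.25 over genes. With library totals 17 of 22 were positive and the median was 0.29. A positive sign throughout was not particular to COG. All 15 tested BIG genes were positive too, and 14 of them with library totals. The test called 14 higher and 0 lower, and each of the 8 subunits had at least 1 gene called. With library totals 5 were called higher and 0 lower, among them genes for COG2, COG5, COG6 and COG7 and none for COG1, COG3, COG4 or COG8. The FPKM of 12 genes lay higher in every 15DPA library than in any 5DPA library, and that of 0 genes lower. Over all genes tested these shares were 12.9% and 37.3%. Summed COG levels were 323.3, 311.0 and 293.1 FPKM at 15DPA, against 228.7, 242.1 and 266.1 FPKM at 5DPA, at a ratio of means of 1.26 (1.55 with TMM factors). Called without 15DPA replicates 1, 2 and 3 were 3, 12 and 12, and without 5DPA replicates 1, 2 and 3 they were 4, 1 and 9.

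Subunits of both lobes of the complex rose. In yeast and mammals subunits 1 to 4 form lobe A and subunits 5 to 8 form lobe B. In lobe A, COG2 summed to 46.1 ± 1.98 FPKM at 15DPA against 34.1 ± 4.17 FPKM at 5DPA (SD, n = 3 each), with 2 of 2 genes called. COG4 summed to 43.4 ± 7.56 FPKM at 15DPA against 31.7 ± 1.51 FPKM at 5DPA, with 3 of 4 called. For COG1 (44.0 ± 1.24 FPKM at 15DPA against 39.5 ± 3.82 FPKM at 5DPA, 2 of 4 called) and COG3 (36.3 ± 3.51 FPKM at 15DPA against 35.8 ± 3.07 FPKM at 5DPA, 1 of 4 called) the sums of the stages overlapped. In lobe B, COG7, the Arabidopsis EMBRYO YELLOW protein, summed to 46.7, 42.7 and 38.0 FPKM at 15DPA, against 26.3, 26.5 and 31.1 FPKM at 5DPA, with 2 of 2 called and the highest ratio of means of any subunit, 1.52. COG6 summed to 50.8, 46.7 and 40.7 FPKM at 15DPA, against 28.4, 33.7 and 32.9 FPKM at 5DPA, with 2 of 2 called and a ratio of 1.46. COG5 (24.4 ± 0.538 FPKM at 15DPA against 20.7 ± 1.07 FPKM at 5DPA) and COG8 (26.5 ± 1.43 FPKM at 15DPA against 24.1 ± 2.32 FPKM at 5DPA) had 1 of 2 genes called each, and the COG8 sums overlapped.

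**Figure D3:**
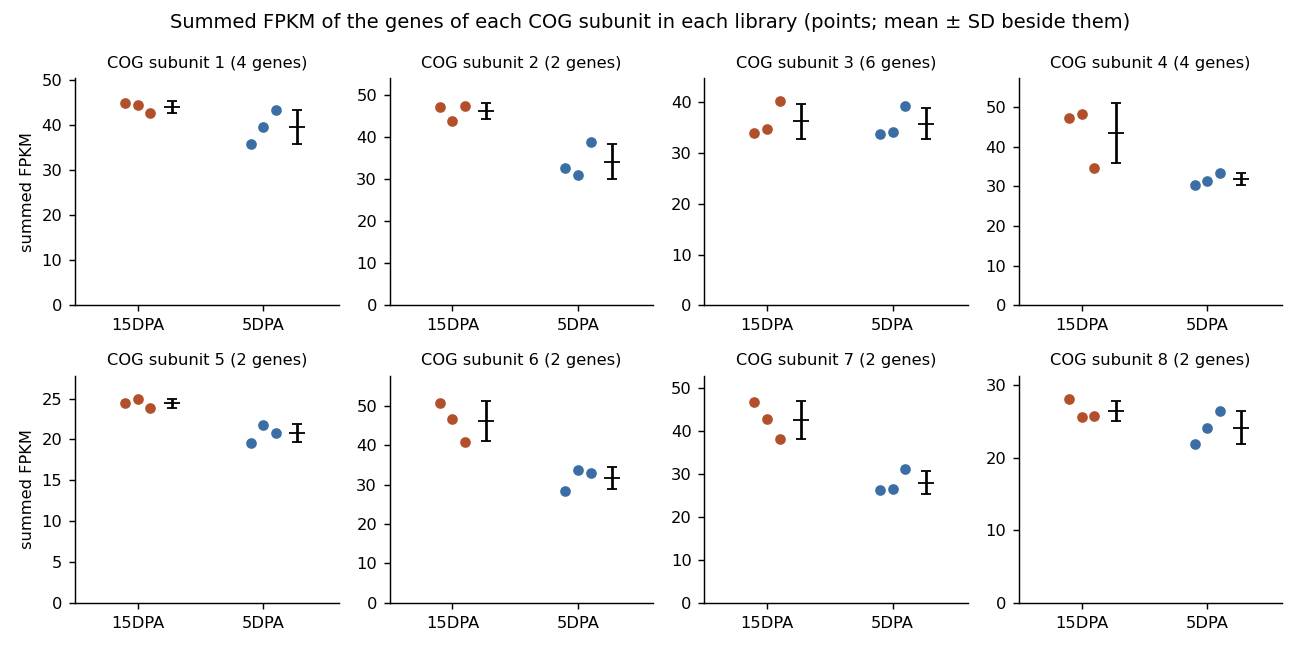
Summed FPKM of the genes of each COG subunit in each of the 3 libraries at 15DPA and at 5DPA (points), with mean ± SD beside them and every axis starting at 0. The stages are apart for COG2, COG4, COG5, COG6 and COG7 and overlap for COG1, COG3 and COG8.

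The most abundant COG genes were Gh_D11G181000 and Gh_D08G171000. Gh_D11G181000 (COG2, D11:19125828-19132249) had 28.1, 26.1 and 28.2 FPKM at 15DPA, against 17.8, 17.1 and 21.6 FPKM at 5DPA. It rose by 0.84 ± 0.17 on the log2 scale (edgeR adjusted p 0.0158), a call lost without 15DPA replicate 1, 5DPA replicate 1 or 5DPA replicate 2 (adjusted p of up to 0.0682). Gh_D08G171000 (COG6, D08:54457872-54461407) had 31.9, 27.7 and 19.9 FPKM at 15DPA, against 13.9, 18.9 and 18.4 FPKM at 5DPA. Its 15DPA replicate 3 lay close above the highest 5DPA library, and the call (0.93 ± 0.21, edgeR adjusted p 0.0211) was lost with library totals, without 15DPA replicate 1 and without any one of the 5DPA replicates. One COG gene kept its call with any library left out, Gh_D10G134300 (COG5), named after its values were seen. It averaged 13.2 FPKM at 15DPA against 9.77 FPKM at 5DPA and rose by 0.73 ± 0.12 (edgeR adjusted p 0.00918).

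TRAPP complexes tether vesicles and also act as exchange factors for Rab GTPases. Of 51 TRAPP genes 45 were tested, 9 were called higher and 0 lower, with log2 changes of -1.68 to 3.96. The median of 0.29 turned to -0.01 with library totals. Under that scaling 4 genes were called higher and 1 lower, against 7.19% and 19.3% of all genes tested. The gene called lower, of the 130 homolog, was not called with TMM scaling. The sums of 658.5, 671.9 and 695.7 FPKM at 15DPA lay just above the 602.1, 639.9 and 650.4 FPKM at 5DPA, at a ratio of means of 1.07 (1.32 with TMM factors). The fits without 15DPA replicates 1, 2 and 3 called 1, 11 and 9 genes higher, and those without 5DPA replicates 1, 2 and 3 called 3, 1 and 5. Among the small core subunits, 3 of 4 genes of subunit 6B, 1 of 2 of subunit 1, 1 of 6 of subunit 4 and 1 of 5 of subunit 5 were called, and none of those for subunits 2, 2-like and 3. Of the subunits particular to TRAPPII, which in Arabidopsis is needed to build the cell plate, 2 of 3 genes of the 130 homolog and 1 of 4 of the 120 homolog were called. None of the 14 tested genes for subunits 8, 11, 12 and 13, which belong to TRAPPIII in animals, was called.

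Subunit 6B was the TRAPP description with the most calls. Its genes summed to 105.5, 97.8 and 118.9 FPKM at 15DPA, against 75.1, 74.2 and 86.2 FPKM at 5DPA. The most abundant, Gh_A11G262300 (A11:93994426-93996870), averaged 50.3 ± 4.89 FPKM at 15DPA against 34.5 ± 1.73 FPKM at 5DPA (SD, n = 3 each) and rose by 0.84 ± 0.16 on the log2 scale (edgeR adjusted p 0.0128). Its call was lost without 15DPA replicate 1 and without 5DPA replicate 2, at an adjusted p of up to 0.0592. Gh_D09G128300 (TRAPP subunit 3, D09:39356870-39361882), the other abundant TRAPP gene, had 47.0, 43.5 and 47.9 FPKM at 15DPA against 37.4, 42.7 and 44.5 FPKM at 5DPA, which overlap, and was not called (0.45 ± 0.15, edgeR adjusted p 0.0668).

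The largest change of any member was in Gh_D11G248900 (TRAPP subunit 4, D11:47271740-47276181), a short model of 345 bases. It had 11.9, 18.0 and 31.9 FPKM at 15DPA, against 2.04, 1.22 and 1.58 FPKM at 5DPA, from 67, 105 and 172 reads at 15DPA and 11, 7 and 9 reads at 5DPA. The 15DPA libraries differed among themselves more than in most members, yet each was far above each 5DPA library. It rose by 3.96 ± 0.47 on the log2 scale (edgeR adjusted p 0.0041), with 3.44 to 4.21 when single libraries were left out and the call kept each time (adjusted p of at most 0.0256). The other 5 tested subunit 4 genes were not called, and the subunit's sums overlapped between the stages. A pair of adjacent models for subunit 8, Gh_A04G063000 and Gh_A04G063100, lie 911 bases apart and may be pieces of a single gene.

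The Golgi SNAREs in the list are Qb-SNAREs of the GOS1 family, which fuse vesicles within the Golgi and between the endoplasmic reticulum and the Golgi. Of 6 genes all 6 were tested and 2 were called higher, with the same number in each fit that left out a library. The group's median of 0.20 turned to -0.09 with library totals. Both genes for member 1-1 (GOS11 in Arabidopsis) rose. Gh_D06G219700 (D06:63219465-63224708) had 27.8, 26.1 and 26.3 FPKM at 15DPA, against 16.2, 9.99 and 11.7 FPKM at 5DPA. Gh_A06G213100 (A06:123227511-123232668) had 15.1, 14.4 and 12.4 FPKM at 15DPA, against 9.19, 7.65 and 7.82 FPKM at 5DPA. The stages did not overlap in either copy. Their log2 changes were 1.38 ± 0.21 and 1.05 ± 0.17 (edgeR adjusted p 0.00757 and 0.00876), and both calls held with any library left out (adjusted p of at most 0.0401 and 0.0446) and with library totals. The 4 genes for member 1-2 (GOS12) were not called, with log2 changes of -0.10 to 0.26. They summed to 27.9, 29.7 and 27.8 FPKM at 15DPA, against 35.2, 29.9 and 31.0 FPKM at 5DPA. The ratio of these means was 0.89, but 1.09 with TMM factors.

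**Figure D4:**
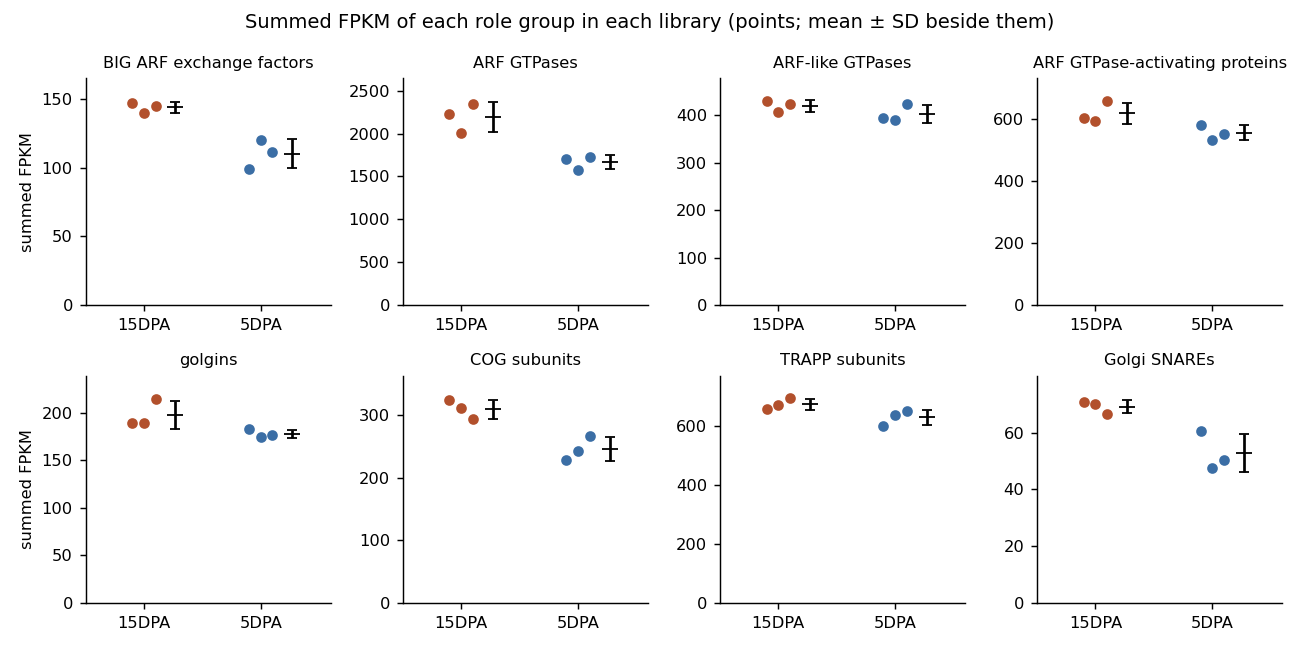
Summed FPKM of all genes of each role group in each of the 3 libraries at 15DPA and at 5DPA (points), with mean ± SD beside them and every axis starting at 0. The stages are apart in each group except the ARF-like GTPases, and the BIG exchange factors, ARF GTPases, COG subunits and Golgi SNAREs have ratios of means of 1.26 to 1.31.

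Upland cotton carries an A and a D subgenome, so most members have a partner gene. Where a description had exactly 1 gene on an A chromosome and 1 on the D chromosome of the same number, the genes were treated as a pair, which gave 75 pairs, 67 of them with both genes tested. Both were called higher in 21 pairs, the A copy alone in 7 and the D copy alone in 10, 1 copy was lower in 1 pair, and 28 pairs had no call. The signs of the log2 changes matched in 61 of 67 pairs, where 166 of the 208 tested members had a positive value to begin with. The median difference between copies was 0.18, and Pearson's r across the 67 pairs was 0.76, given as a description since the copies share libraries and may share reads. Segments of A02 and A03 and of A04 and A05 were exchanged in the evolution of upland cotton, so pairs on these chromosomes may not be true partners. In the 54 pairs on other chromosomes r was 0.81, both copies were called higher in 17 and the median difference was 0.16.

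In the 5 most abundant pairs by this rule the share of the A copy differed by a few percentage points at most between the stage means. The more abundant ARF2 genes on A08 and D08 are not among them. A description with several genes on a chromosome formed no pair there. The A copy held 54.2, 55.5 and 52.3% of the FPKM of the ARF2 pair on A01 and D01 in the 15DPA libraries and 55.9, 56.1 and 56.0% in the 5DPA libraries. For the ARF2 pair on A12 and D12 the A share was 67.9 ± 0.114% at 15DPA and 66.1 ± 0.301% at 5DPA (SD, n = 3 each). The A copies of the ARL8a pair on A02 and D02 (84.9 to 88.8% at 15DPA and 81.7 to 87.9% at 5DPA) and of the TRAPP subunit 3 pair on A09 and D09 (45.5 ± 3.64% at 15DPA and 46.4 ± 2.13% at 5DPA) had overlapping shares. The A share of the genes matching ARF1 on A05 and D05, which are hits to different species, was 78.3 ± 0.112% at 15DPA and 82.1 ± 2.13% at 5DPA. These genes lie at A05:97658775-97661633 and D05:652476-656143 and may not be true partners. In that pair Gh_A05G363300 averaged 57.7 ± 2.35 FPKM at 15DPA against 65.8 ± 4.07 FPKM at 5DPA and was not called (log2 change 0.11 ± 0.12, edgeR adjusted p 0.532), and its sign turned to -0.19 with library totals. The copies lay furthest apart, by 0.81 on the log2 scale, in the AGD8 pair on A12 and D12, where the A copy rose by 1.25 and the D copy by 2.06 (edgeR adjusted p 0.0186 and 0.00286). The call of the A copy was lost without 15DPA replicate 1, 5DPA replicate 2 or 5DPA replicate 3. The BIG5 pair on A05 and D05, named after its values were seen, had log2 changes of 0.91 and 0.16, and the A share was 69.5 ± 2.71% at 15DPA and 57.5 ± 1.23% at 5DPA. Differences between copies were not tested.

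**Figure D5:**
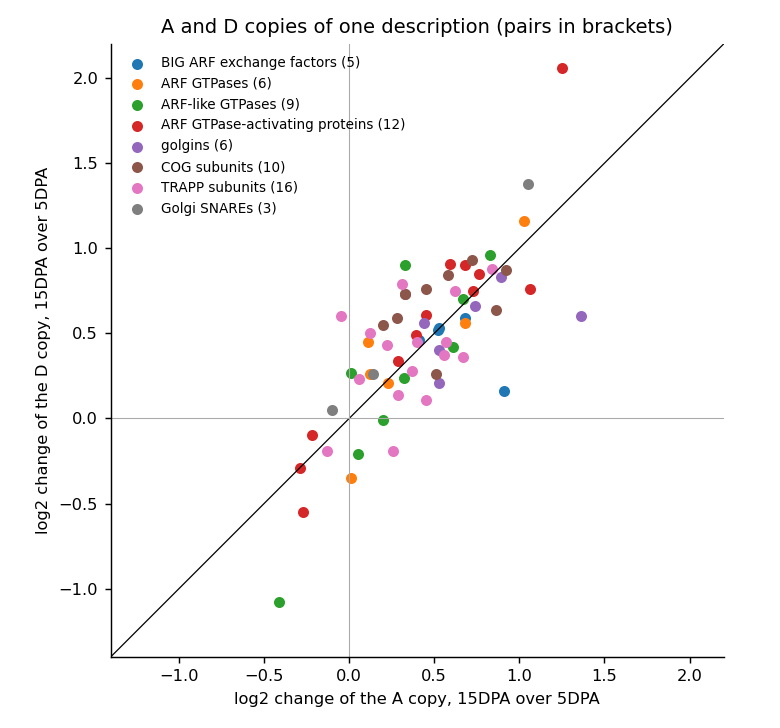
Log2 change (15DPA over 5DPA) of the D copy against that of the A copy for the 67 pairs with both copies tested, coloured by role, with the line of equal change. Most pairs lie in the upper right near the line, and the AGD8 pair on A12 and D12 (1.25 and 2.06) lies highest.

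Genes of neighbouring steps gave different counts. The COPI coat, which active ARF1 recruits, had 30 of 43 tested genes called higher and 1 lower (median log2 change 0.55), with sums of 1351.8, 1299.6 and 1259.9 FPKM at 15DPA, against 1031.8, 1075.5 and 1151.8 FPKM at 5DPA. With library totals 9 COPI genes were called higher and 1 lower. Exchange factors of the GNOM type, which also load ARFs, had 2 of 5 tested genes called higher and 0 lower (median 0.39). COPII coat genes, which form vesicles at the endoplasmic reticulum, had 14 of 66 called higher and 0 lower (median 0.25), or 2 higher and 6 lower with library totals. Of the GARP and MAG2 tethers 3 of 17 were called higher and 0 lower. For the cargo receptors the counts were 4 of 32 and 0, and for the Golgi Rab GTPases 7 of 24 and 1. Over all genes tested 13.0% were called higher and 10.4% lower. The shares called higher were near that for the cargo receptors (12.5%) and for the GARP and MAG2 tethers (17.6%). With library totals the cargo receptors had 2 called higher and 3 lower, the Golgi Rab GTPases 1 higher and 2 lower, the GARP and MAG2 tethers 1 higher and 0 lower, and the GNOM type 0 in either direction. Under library totals 7.19% of all genes tested were called higher and 19.3% lower. The counts of these lists also changed when single libraries were left out. In the fits without 15DPA replicates 1, 2 and 3 the COPI genes called higher were 0, 32 and 22, and in those without 5DPA replicates 1, 2 and 3 they were 4, 0 and 14. For COPII the numbers in the same order were 0, 18, 9, 3, 0 and 6, for the GNOM type 0, 2, 2, 0, 0 and 1, and for GARP and MAG2 1, 6, 2, 1, 0 and 2. Cargo receptors gave 0, 9, 3, 1, 0 and 3, and Golgi Rab GTPases 0, 9, 3, 0, 0 and 1. In that order 3.74%, 15.1%, 12.8%, 7.17%, 3.72% and 6.67% of all genes tested were called higher.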

How the data were processed

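Poly(A) RNA from 3 fiber libraries per stage was sequenced as paired ends on an Illumina instrument, per the labels' protocols. The deposited table holds whole-number read counts per gene and FPKM values, which equal the authors' count per kilobase of gene model and per M counts of the library (checked on the values). Per the submitters' processing notes HISAT and StringTie were used, with build, annotation, counting settings and strand use not given in the sources used here. Gene positions are those of the deposited table, without a named build. Near-identical copies, overlapping genes and antisense genes may share reads. A further 2 emptied lines were left out.

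Genes with a mean of at least 1 FPKM (40054, with 99.34% of counts) were tested with edgeR 4.0.16 in R 4.3.3 (quasi-likelihood, TMM, two-sided, Benjamini-Hochberg, threshold 0.05) on all 6 libraries. The SE is the log2 change divided by the square root of F. The common biological coefficient of variation was 28%. Fold changes are 15DPA over 5DPA. DESeq2 1.42.0, limma 3.58.1, other scalings, filters, the replicate block and single libraries left out were alternatives. The script was tested on simulated data in which few genes changed. It called 14 of 50 genes set 2-fold higher, 39 of 50 set 4-fold higher and 50 of 50 set 8-fold higher. Of genes set to 0.25 of their level it called 47 of 50, and of unchanged genes 6 of 39854. A gene that was not called may therefore still have changed.

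Members and lists were chosen with earlier results of these data known. Named genes were, per role, the 2 tested members with the highest mean FPKM, then over all members the 5 largest called rises and the 5 largest called falls with FPKM ranges that do not overlap (2 falls qualified), and the 5 most abundant A and D pairs. No sequences are shown.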

Additional observations from a re-analysis of the deposited data

How the results depend on the processing

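Calls near the threshold changed with the scaling and when single libraries were left out. The members' median stayed 0.35 to 0.49 above that of all genes under each setting run. A change of scaling alone moves all genes nearly alike and could not alter this difference much. With library totals 32 members were called higher and 9 lower, and 2879 and 7730 of all genes; limma on log2(FPKM + 1) gave 32 and 14, and 2924 and 8915, and with a pseudocount of 0.1 it gave 32 and 14, and 2866 and 8297. Leaving out single libraries gave 13 to 84 members higher, 0 to 5 lower, and 1491 to 6039 and 821 to 5395 of all genes. DESeq2 called 86 members higher and 2 lower, against 16.1% and 12.1% of all genes tested. A filter at 5 FPKM gave 55 and 3 of 163 tested, against 15.6% and 14.3% of all genes tested.

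Dividing FPKM by TMM factors moved the ratio of summed FPKM to 1.48 for all members, 1.61 for BIG factors, 1.62 for ARFs, 1.28 for ARF-like genes, 1.37 for GAPs and for golgins, 1.55 for COG, 1.32 for TRAPP and 1.61 for SNAREs. Of 31 named genes, 2 turned sign, both not called: Gh_D03G030500 to -0.03 with library totals and -0.02 with limma at either pseudocount, and Gh_A05G363300 to -0.19 in all 3 of these and to -0.01 with the filter at 5 FPKM.

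Same-numbered libraries deviated together with correlations of -0.217, 0.324 and 0.0617, so the numbers were not taken as pairs. With the replicate block 67 members were called higher and 2 lower, against 12.6% and 9.83% of all genes tested. With it 7 BIG genes were called higher, and Gh_D08G042000 was not called.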
